A study of Mus musculus with 16 samples.

Results

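The genes described here act in the vessels of the heart and number 10 of the 55573 genes counted in the series. They are the vascular endothelial growth factors Vegfa and Vegfb, their receptors Kdr and Flt1, the junction proteins Pecam1 and Cdh5, the angiopoietins Angpt1 and Angpt2, and the peptide Apln with its receptor Aplnr. The members were chosen by name from the known biology of vessels, and each matched 1 row of the count table. All 10 passed the filter on low counts, as did 16857 genes in all. RNA was taken from the heart apex of male wild-type mice, 4 in each of 4 groups, and 1 library was sequenced per mouse. Every mouse had received AAV9, a virus that infects heart muscle, under the skin on postnatal day 1. The vector carried either GFP, a fluorescent protein that serves as the control (AAV9-cTNT-GFP), or Cardinal, a long noncoding RNA of heart muscle (AAV9-cTNT-CARDINAL). The cTNT promoter is active in cardiomyocytes, so both transgenes were directed to these cells and not to the endothelium. Mice later underwent TAC (transverse aortic constriction), a ligation that narrows the aorta and loads the left ventricle, or a sham operation without the ligation, and hearts were collected 4 weeks after surgery. Groups are named by virus and surgery (for example AAV9-GFP sham), and the age at surgery is not given in the sources used here.

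Vessels of the heart are lined by endothelial cells and supported by pericytes and smooth muscle cells. VEGF-A and VEGF-B, the proteins of Vegfa and Vegfb, are secreted largely by muscle and bind receptors on the endothelium. KDR is the main signalling receptor for VEGF-A, whereas FLT1 binds both ligands and can hold VEGF-A away from KDR. Angiopoietin-1 activates the endothelial receptor TEK and stabilizes vessels, and angiopoietin-2 often opposes it. Apelin acts through the G protein-coupled receptor APLNR on endothelial cells and cardiomyocytes. PECAM1 and VE-cadherin, the product of Cdh5, join endothelial cells to each other and are commonly used to mark them.

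Reads were counted per gene without regard to isoform, and between 16441997 and 21904589 counts were obtained per mouse (median 21723766). Levels are given as CPM, the counts of a gene per fixed library size after TMM normalization, which corrects for differences in composition between libraries. A count of 3 was worth 0.126 to 0.195 CPM, depending on the mouse, a floor that covers counting error only. The lowest count of any member in any mouse was 32, for Angpt2. Cardinal, listed as Gm12295, was between 26.2 and 40.0 CPM in AAV9-Cardinal sham mice and between 3.42 and 5.93 CPM in AAV9-GFP sham mice. AAV9-Cardinal TAC replicate 1 stood apart from the rest of its group. Gm12295 reached 93.9 CPM in this mouse and between 18.3 and 20.6 CPM in the other 3, and the hypertrophy marker Acta1 reached 1359 CPM against 571 to 815 CPM. The same mouse was the lowest of its group for 7 of the 10 members, but so was AAV9-GFP sham replicate 1. AAV9-GFP sham replicate 4 and AAV9-Cardinal TAC replicate 6 were each the highest of their group for 7. Both TAC mice numbered 1 were the lowest of their group for Vegfa, Flt1, Pecam1, Angpt2 and Apln and the highest for Angpt1. Nothing in the labels ties mice to a litter or a batch, and p-values measure the spread between these mice only.

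Per length of transcript, the growth factors were the most abundant members. In AAV9-GFP sham hearts, Vegfb had a mean of 97.5 RPKM (SD 2.37, n = 4), where RPKM is CPM per kilobase of exons, and Vegfa had 63.2 RPKM (SD 12.8). Next came Cdh5 at 32.1 RPKM, Pecam1 at 18.04 RPKM, Kdr at 11.5 RPKM, Flt1 at 11.01 RPKM, Angpt1 at 6.67 RPKM, Aplnr at 4.12 RPKM, Apln at 3.01 RPKM and Angpt2 at 1.00 RPKM. Among neighbors in this order, the mice overlapped for Kdr and Flt1 and for Aplnr and Apln. After TAC with AAV9-GFP, Aplnr stood at 8.32 RPKM, above Apln at 2.69 RPKM and Angpt1 at 2.29 RPKM, and the mice of the last 2 overlapped. In AAV9-Cardinal TAC hearts Aplnr had 4.89 RPKM, Angpt1 3.32 RPKM and Apln 3.31 RPKM, and the mice of each neighboring pair overlapped.

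TAC changed 4 members in AAV9-GFP hearts and 1 in AAV9-Cardinal hearts at the threshold used. These counts do not show that the viruses differ: tested directly, the difference in TAC response was past the threshold for 0 of 10 members. With AAV9-GFP, Aplnr and Cdh5 rose and Angpt1 and Vegfb fell, that is, 4 of 10 members were called at an adjusted p under 0.05 (quasi-likelihood test of edgeR, fitted to the 16 mice together), against 17.4% of all genes tested. The 2 that rose stand against 8.49% of all genes, and the 2 that fell against 8.92%. With AAV9-Cardinal, only Angpt1 was called, and it fell. This is 1 of 10, against 6.48% of all genes in either direction and 3.38% that fell. The groups did not overlap for the same 4 members with AAV9-GFP (20.3% of all genes) and for Angpt1 with AAV9-Cardinal (13.7%). The median log2 fold change of the members was -0.06 with AAV9-GFP and 0.07 with AAV9-Cardinal, beside medians of 0.005 and -0.0005 over all genes.

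**Figure D1:**
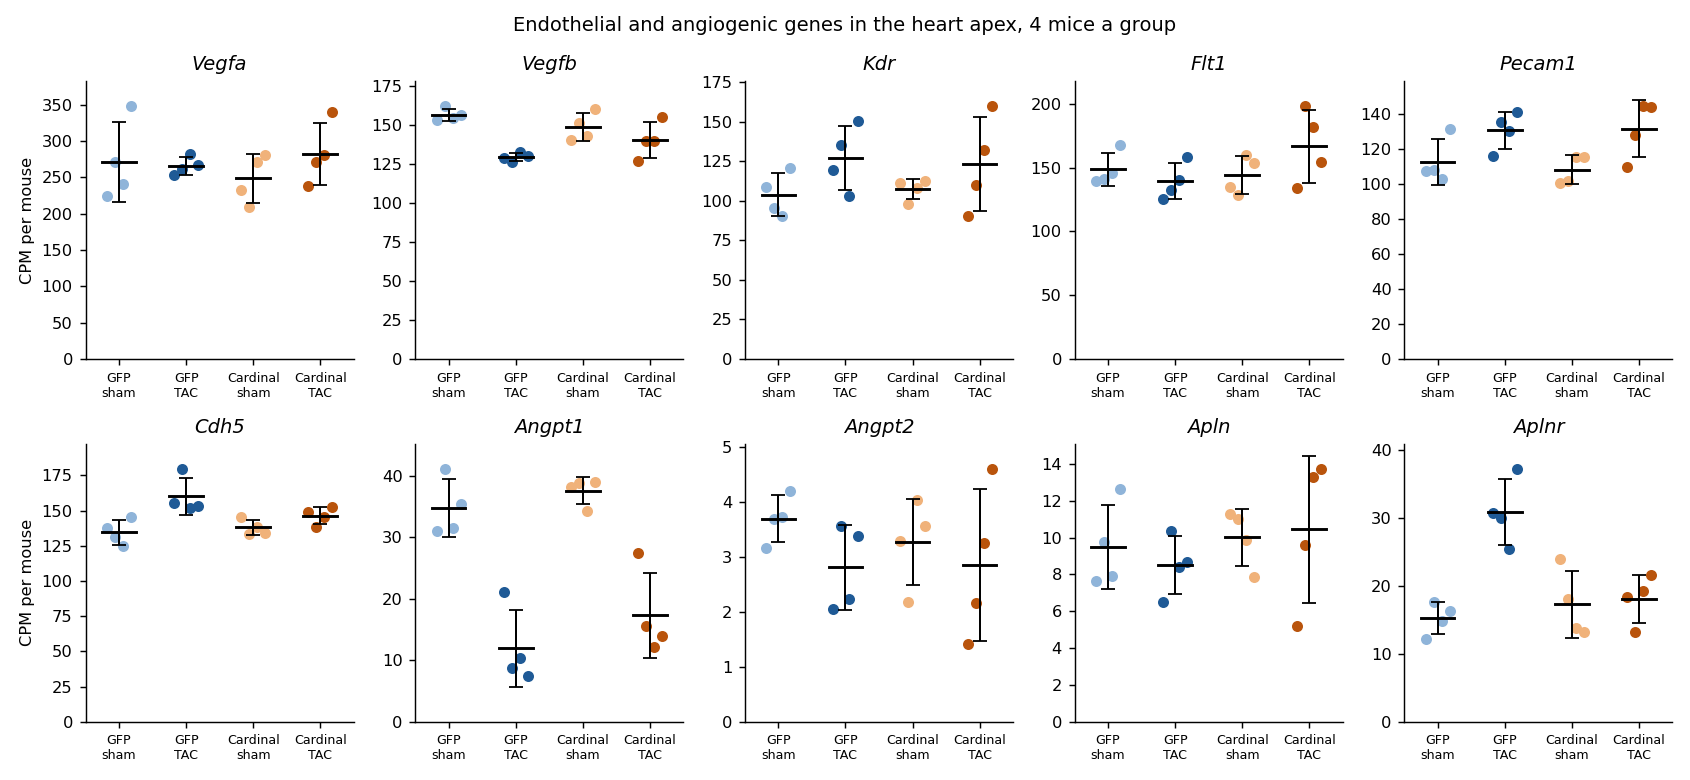
Level in CPM (y axis, from 0) of each member in each mouse (points), by group (x axis), with the group mean (bar) and SD (whiskers, n = 4). Angpt1 lay between 7.48 and 21.045 CPM in AAV9-GFP TAC mice and between 30.9 and 41.1 CPM in their sham controls, and Aplnr rose from at most 17.6 CPM to at least 25.4 CPM.

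**Figure D2:**
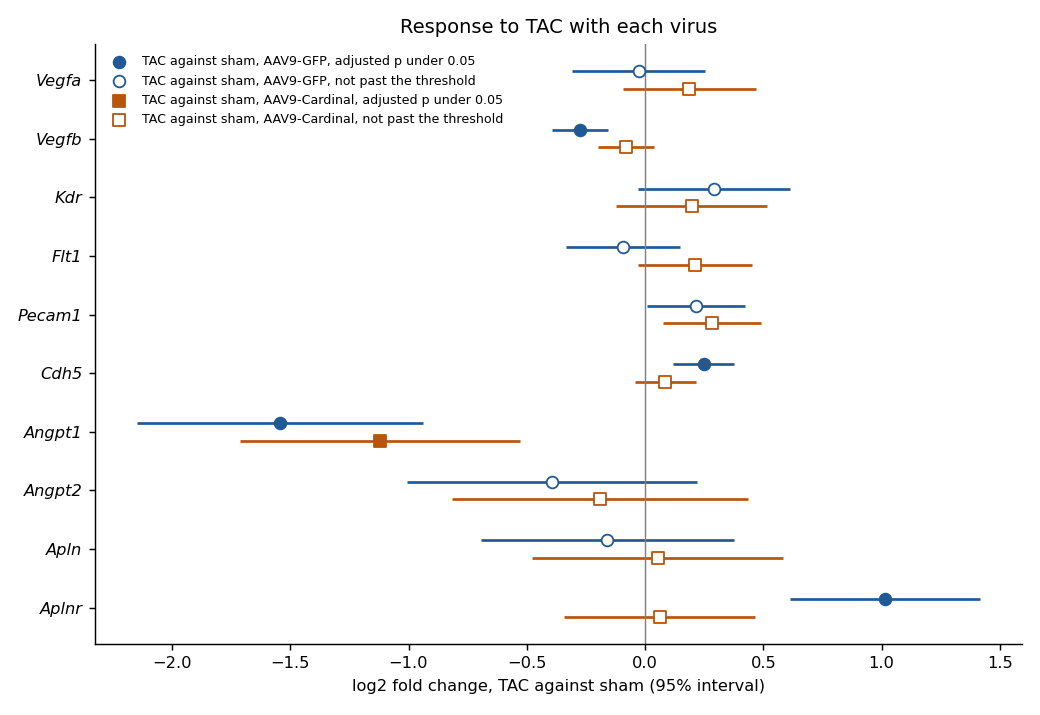
Log2 fold change of TAC against sham (x axis) for each member (y axis) with AAV9-GFP (circles) and AAV9-Cardinal (squares), with 95% intervals from edgeR. Filled symbols have an adjusted p under 0.05: Angpt1 with both viruses, and Vegfb, Cdh5 and Aplnr with AAV9-GFP.

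Angpt1 showed the largest change of the 10 members in either TAC comparison. The gene (ENSMUSG00000022309) lies at chr15:42424723-42676977 of GRCm38 on the minus strand and encodes angiopoietin-1. In AAV9-GFP sham mice it was at 30.9, 41.1, 31.5 and 35.4 CPM, and in AAV9-GFP TAC mice at 21.045, 8.73, 10.4 and 7.48 CPM. Every TAC mouse was below every sham mouse, and replicate 1 was the highest of the TAC mice. The level fell by 1.54 on the log2 scale (SE 0.28, edgeR adjusted p = 0.0018), to 0.343 of the sham level, and it stayed past the threshold with each mouse left out in turn (-1.96 to -1.37). With AAV9-Cardinal, sham mice were at 38.2, 38.8, 34.3 and 38.9 CPM and TAC mice at 27.4, 15.6, 12.2 and 13.9 CPM. Again the groups did not overlap and replicate 1 was the highest TAC mouse. The level fell by 1.12 on the log2 scale (SE 0.28, edgeR adjusted p = 0.029), to 0.460 of the sham level. This call was lost, with adjusted p between 0.060 and 0.096, without AAV9-Cardinal sham replicate 1, 2 or 4 or without AAV9-Cardinal TAC replicate 4, 5 or 6, and it was 0.0073 without AAV9-Cardinal TAC replicate 1. The fall did not differ detectably between the viruses, with a difference of 0.42 in log2 fold change (95% interval -0.41 to 1.26, edgeR adjusted p = 0.75).

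The exons of Angpt1 overlap the antisense gene Gm17473 over 737 bases (14.2% of their length). The use of strand in counting is not stated, so reads from this stretch cannot be told apart. No other member shares exon sequence with a neighboring gene. Angiopoietin-1 is made by cells around the endothelium and also by heart muscle, and marker genes of these cells moved in the same comparison. The summed level of 7 pericyte markers was 912 to 995 CPM in AAV9-GFP sham mice and 832 to 889 CPM in TAC mice, and 920 to 959 CPM and 799 to 879 CPM with AAV9-Cardinal. Of these 7, Abcc9, which encodes a subunit of a potassium channel that cardiomyocytes also make, fell with both viruses (log2 fold changes -0.67 and -0.47, edgeR adjusted p = 1.3e-05 and 0.0012). Cspg4 (1.07, adjusted p = 0.0015) and Pdgfrb (0.55, adjusted p = 0.0011) rose with AAV9-GFP, and the other 4 passed the threshold with neither virus. Without Abcc9, a choice made after these values were seen, the sum of the remaining 6 was not lower after TAC. It was 553 to 612 CPM in sham and 599 to 645 CPM in TAC mice with AAV9-GFP, and 547 to 581 CPM and 552 to 594 CPM with AAV9-Cardinal. This choice was one-sided: it left out the only called pericyte marker that fell and kept Cspg4 and Pdgfrb, which rose. No marker was left out of the other lists. For 7 smooth muscle markers the sum was 232 to 426 CPM in sham and 203 to 223 CPM in TAC mice with AAV9-GFP. With AAV9-Cardinal it was 236 to 264 CPM and 200 to 221 CPM. Among these, Smtn fell with both viruses (-0.46 and -0.40, edgeR adjusted p = 4.1e-04 and 0.0053). Cnn1 rose with AAV9-GFP (1.18, adjusted p = 0.029), and no other smooth muscle marker was called. For 7 cardiomyocyte markers the sum was 43810 to 46517 CPM and 33298 to 39949 CPM with AAV9-GFP, and 42070 to 46387 CPM and 39915 to 44063 CPM with AAV9-Cardinal. None of these markers was at 0 in a group, and their part in the change of Angpt1 was not tested. In whole tissue, fewer cells of a type and less RNA per cell cannot be told apart.

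Angpt2, which encodes the other angiopoietin and is known as a gene of sprouting and activated endothelium, was the least abundant member. It was at 3.17, 3.70, 3.72 and 4.20 CPM in AAV9-GFP sham mice and at 2.06, 3.57, 2.23 and 3.39 CPM after TAC, and these ranges overlapped. The log2 fold change was -0.39 (SE 0.29, edgeR adjusted p = 0.40) with AAV9-GFP and -0.19 (SE 0.29, adjusted p = 0.78) with AAV9-Cardinal. Within a mouse, the log2 ratio of Angpt2 over Angpt1 averaged -3.20 (SD 0.19, n = 4) in AAV9-GFP sham hearts and -1.97 (SD 1.00, n = 4) after TAC. The difference of 1.23 had a p of 0.11 in an exact two-sided permutation test of 4 mice against 4, in which 0.029 is the smallest p possible. AAV9-GFP TAC replicate 1, at -3.30, lay among the sham mice, and the other 3 TAC mice lay between -2.18 and -1.12, above all sham mice. With AAV9-Cardinal the averages were -3.52 (SD 0.43, n = 4) and -2.61 (SD 1.17, n = 4), a difference of 0.91 with p = 0.23 in the exact permutation test.

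Aplnr (ENSMUSG00000044338, chr2:85136225-85139923, plus strand) encodes the apelin receptor. It was at 12.2, 17.6, 14.8 and 16.3 CPM in AAV9-GFP sham mice and at 30.6, 30.0, 25.4 and 37.2 CPM after TAC. All 4 TAC mice were above all sham mice. The increase was 2.02-fold, a log2 fold change of 1.02 (SE 0.19, edgeR adjusted p = 0.0019), and it lay between 0.916 and 1.1004 with each mouse left out in turn. With AAV9-Cardinal, sham mice were at 23.9, 17.98, 13.8 and 13.2 CPM and TAC mice at 18.3, 13.2, 19.2 and 21.5 CPM, and the groups overlapped almost completely. The log2 fold change was 0.06 (95% interval -0.34 to 0.47, edgeR adjusted p = 0.91).

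Between the viruses after TAC, every AAV9-Cardinal mouse was below every AAV9-GFP mouse for Aplnr, with means of 18.1 CPM (SD 3.52, n = 4) and 30.8 CPM (SD 4.86, n = 4). The log2 fold change of -0.77 (SE 0.19) did not pass the threshold in edgeR (adjusted p = 0.093), whereas the adjusted p of DESeq2 was 0.0045. Tested directly, the TAC response of Aplnr was smaller with AAV9-Cardinal by 0.95 on the log2 scale (95% interval -1.52 to -0.39, unadjusted p = 0.0027 in edgeR), but the adjusted p over all genes was 0.30. A difference in the response of Aplnr between the viruses was therefore not established at the threshold used.

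Apln encodes the ligand. It was at 7.61, 9.75, 7.94 and 12.6 CPM in AAV9-GFP sham mice and at 6.51, 10.4, 8.40 and 8.65 CPM after TAC, with a log2 fold change of -0.16 (SE 0.25, edgeR adjusted p = 0.74). In AAV9-Cardinal mice the range was 7.85 to 11.3 CPM after sham surgery and 5.18 to 13.7 CPM after TAC, a log2 fold change of 0.05 (SE 0.25, adjusted p = 0.94). The ligand thus overlapped between sham and TAC mice with both viruses. Because the receptor rose, the log2 ratio of Apln over Aplnr within a mouse went from -0.67, -0.84, -0.90 and -0.37 in AAV9-GFP sham mice to -2.22, -1.52, -1.58 and -2.09 after TAC, without overlap. The difference was -1.16 (p = 0.029 by exact permutation, two-sided, which is the lowest attainable), with an adjusted p of 0.30 over the 16 comparisons of ratios. A single comparison at this lowest p cannot pass that adjustment. With AAV9-Cardinal the difference was -0.11 (exact permutation p = 0.94). There, TAC replicate 1 was at -1.80, among the AAV9-GFP TAC mice, and the other 3 TAC mice lay between -0.65 and -0.46. Apela, the gene of the second ligand of this receptor, had 0 counts in all 16 mice.

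**Figure D3:**
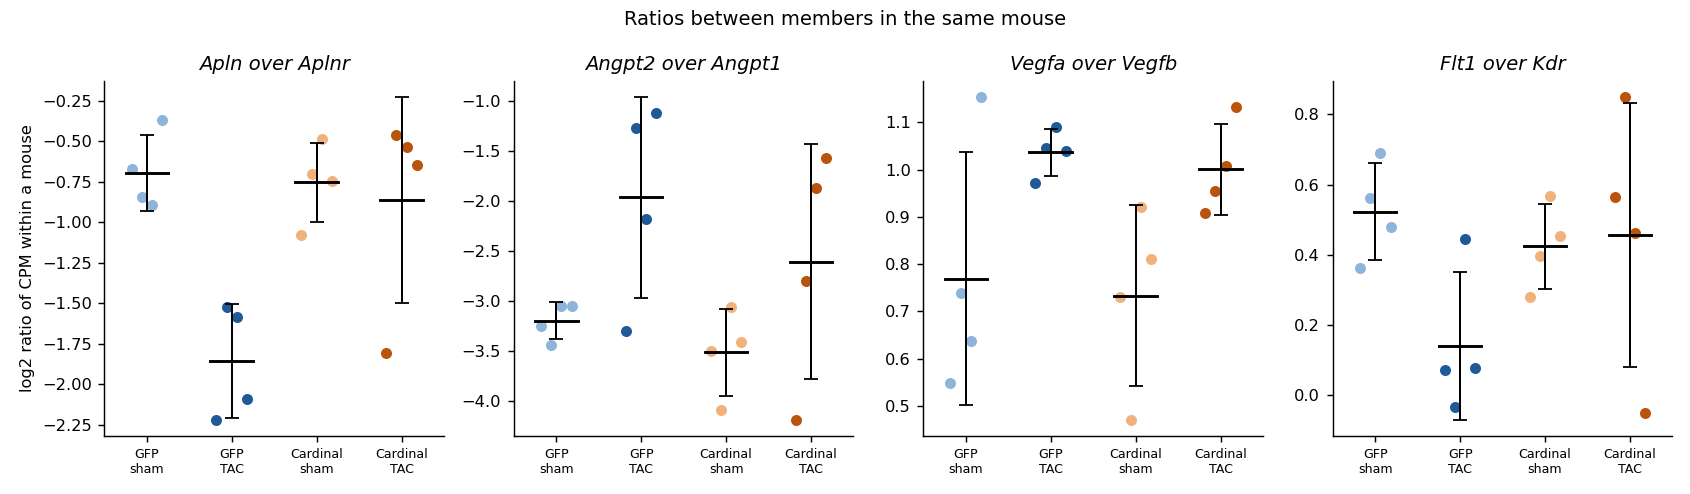
Log2 ratio of CPM between pairs of members within each mouse (y axis; points), by group (x axis), with the group mean (bar) and SD (whiskers, n = 4). Apln over Aplnr lay between -2.22 and -1.52 in AAV9-GFP TAC mice and at -0.37 to -0.90 in their sham controls, and AAV9-Cardinal TAC replicate 1 was at -1.80.

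Vegfb (ENSMUSG00000024962, chr19:6982473-6987651, minus strand) showed a small change with little spread between mice. In AAV9-GFP sham mice it was at 153, 162, 155 and 156 CPM, and after TAC at 129, 126, 133 and 129.8 CPM. The groups did not overlap. It fell by 0.27 on the log2 scale (SE 0.056, edgeR adjusted p = 0.0033), to 0.827 of the sham level. Raw counts were 3156 to 3372 in AAV9-GFP sham mice and 2985 to 3031 in AAV9-GFP TAC mice, a smaller fall than in CPM. The TMM factors were 0.940 to 0.977 in these sham mice and 1.05 to 1.09 in these TAC mice, and they overlapped with AAV9-Cardinal. With AAV9-Cardinal, sham mice were at 140.5, 151, 143 and 160.2 CPM and TAC mice at 127, 139.9, 139.5 and 155 CPM, which overlapped, and the log2 fold change was -0.08 (95% interval -0.20 to 0.04, adjusted p = 0.43). The difference between these responses was 0.19 (SE 0.079, unadjusted p = 0.027 in edgeR), with an adjusted p of 0.42 over all genes. Most cardiomyocyte markers fell beside it: 6 of 7 (Pln, Tnni3, Tnnt2, Myh6, Ryr2 and Myl2) were lower after TAC with AAV9-GFP (8.92% of all genes tested) and 1 (Pln) with AAV9-Cardinal (3.38%). The remaining marker, Actc1, went the other way, with log2 fold changes of 0.12 with AAV9-GFP and 0.32 with AAV9-Cardinal (edgeR adjusted p = 0.45 and 0.053). The part of these markers in the change of Vegfb was not tested. Over the 16 mice, after each group's mean was removed, the genes whose log2 CPM followed Vegfb most closely were Ndufb7 (Pearson's r = 0.94), Ndufa13 (r = 0.91) and Sdhb (r = 0.90), all subunits of the mitochondrial respiratory chain. These correlations share libraries and are given as a description.

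The promoter of Vegfb is shown because it is the only member past the threshold that was found in the RefSeq promoter table used here (Angpt1, Cdh5 and Aplnr were not). The window is the 250 bases before the start, chr19:6987652-6987901 of GRCm38.p6 on the minus strand, with matches to the GC box GGGCGG on either strand in capitals.
Vegfb promoter: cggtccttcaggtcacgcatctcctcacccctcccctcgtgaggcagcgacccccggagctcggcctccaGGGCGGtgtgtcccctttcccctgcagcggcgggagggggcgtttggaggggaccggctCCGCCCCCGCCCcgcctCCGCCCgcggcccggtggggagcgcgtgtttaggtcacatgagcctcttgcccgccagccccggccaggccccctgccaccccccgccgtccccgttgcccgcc
The window holds 4 GC boxes, 2 of which adjoin each other, and no match on either strand to the hypoxia response core ACGTG, the ETS core CCGGAA or the GATA core AGATAA. Of the 32851 windows of the same length in the table, 32.7% hold a GC box, 16.6% the hypoxia core, 12.0% the ETS core and 9.99% the GATA core. The GC box was added after the sequence had been seen.

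Vegfa, the main growth factor for the endothelium, was at 224, 270.5, 241 and 348 CPM in AAV9-GFP sham mice and at 253, 261, 283 and 267 CPM after TAC. The TAC mice lay within the range of the sham mice, and the log2 fold change was -0.03 (95% interval -0.31 to 0.25, edgeR adjusted p = 0.93). With AAV9-Cardinal it was 0.19 (95% interval -0.10 to 0.47, adjusted p = 0.46). The log2 ratio of Vegfa over Vegfb was higher after TAC by 0.27 with both viruses, with exact permutation p = 0.14 with AAV9-GFP and p = 0.057 with AAV9-Cardinal. The 6 other ligands and receptors of the family (Vegfc, Vegfd, Pgf, Flt4, Nrp1 and Nrp2) had log2 fold changes between -0.48 for Pgf and 0.62 for Vegfc with AAV9-GFP, and between -0.30 for Pgf and 0.21 for Nrp2 with AAV9-Cardinal. None passed the threshold in edgeR or in DESeq2 with either virus, and 2 had an unadjusted p under 0.05 with AAV9-GFP and 0 with AAV9-Cardinal.

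The VEGF receptors did not pass the threshold. Kdr was at 109, 95.6, 90.3 and 121 CPM in AAV9-GFP sham mice and at 119.6, 136, 103 and 150.3 CPM after TAC, with a log2 fold change of 0.29 (95% interval -0.03 to 0.61, edgeR adjusted p = 0.21). For Flt1, whose counts include the secreted form of the receptor, the values were 139.8, 141, 146 and 168 CPM and then 126, 132, 141 and 158 CPM, and the log2 fold change was -0.09 (95% interval -0.34 to 0.15, adjusted p = 0.64). With AAV9-Cardinal, the log2 fold change was 0.20 for Kdr (adjusted p = 0.50) and 0.21 for Flt1 (adjusted p = 0.30). The log2 ratio of Flt1 over Kdr fell by 0.38 after TAC with AAV9-GFP (exact permutation p = 0.057) and was 0.03 higher with AAV9-Cardinal (exact permutation p = 0.86). None of the 16 ratio comparisons passed adjustment, where the lowest adjusted p was 0.30. With 4 mice against 4, most of the 16 would have to reach the smallest p possible together for any to pass.

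Cdh5 (ENSMUSG00000031871, chr8:104101625-104144511, plus strand), the gene of VE-cadherin, was at 137, 131, 125 and 146 CPM in AAV9-GFP sham mice and at 155, 179.6, 152 and 154 CPM after TAC. All TAC mice were above all sham mice. It rose by a log2 fold change of 0.25 (SE 0.061, edgeR adjusted p = 0.011), 1.19-fold. With AAV9-Cardinal, the ranges of 134 to 145 CPM and 138 to 152 CPM overlapped, and the log2 fold change was 0.08 (95% interval -0.04 to 0.21, adjusted p = 0.46). The response of Cdh5 did not differ detectably between the viruses (difference -0.16, 95% interval -0.35 to 0.02, edgeR adjusted p = 0.53). Pecam1 was at 107, 108, 103 and 132 CPM in AAV9-GFP sham mice and at 116, 135, 130.2 and 141 CPM after TAC. Its log2 fold change was 0.22 (SE 0.097) with AAV9-GFP and 0.28 (SE 0.097) with AAV9-Cardinal, with edgeR adjusted p of 0.15 and 0.10. Without AAV9-Cardinal TAC replicate 1, Pecam1 was called with AAV9-Cardinal (log2 fold change 0.36, adjusted p = 0.027), and without AAV9-GFP sham replicate 4 it was called with AAV9-GFP (0.30, adjusted p = 0.044).

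Other endothelial genes set a level against which the members can be read. Of 25 such genes that are not members, 5 rose (8.49% of all genes tested) and 0 fell (8.92%) after TAC with AAV9-GFP, with a median log2 fold change of 0.17. These included Cldn5, a tight junction protein (1.16), the transcription factor Ets1 (0.63) and Clec14a (0.51). With AAV9-Cardinal, 1 rose (Ets1, 0.45) and 0 fell, with a median of 0.14, beside 6.48% of all genes called in either direction. The log2 fold change was 0.86 for Cldn5 (adjusted p = 0.080) and -0.02 for Clec14a. DESeq2 called 6 of the list with AAV9-GFP and 2 with AAV9-Cardinal. The mean log2 CPM of the list was 4.73 (SD 0.052, n = 4) in AAV9-GFP sham hearts and 4.93 (SD 0.10) after TAC, and 4.74 (SD 0.058) and 4.89 (SD 0.089) with AAV9-Cardinal. Because this level was higher after TAC, every member taken relative to it is shifted down. Vegfb and Angpt1 are also made by cells other than endothelium, for which this level is not a matched reference. Taken relative to this level in the same mouse, Cdh5 differed by 0.04 and Pecam1 by 0.01 between TAC and sham with AAV9-GFP. Aplnr differed by 0.81, Vegfb by -0.48, Flt1 by -0.30, Angpt2 by -0.62 and Angpt1 by -1.85. Each of these 5 had p = 0.029 in the exact permutation test, the smallest possible. With AAV9-Cardinal, Angpt1 (-1.33) and Vegfb (-0.23) reached the same p, as did Aplnr between the viruses after TAC (-0.73). None of the 40 comparisons of this kind passed adjustment (lowest adjusted p 0.14). With 0.029 as the smallest p possible, most of the 40 would have to reach it together for any to pass. The adjusted p therefore cannot decide on single members. Several of these values depended on how the level of the list was taken. Against the median of the reference genes in place of their mean, Cdh5 differed by 0.24 and Pecam1 by 0.21 with AAV9-GFP, about their whole change. Flt1 then differed by only -0.11 (adjusted p = 0.80) and Vegfb by -0.28 (adjusted p = 0.48) with AAV9-GFP, and Vegfb by -0.0022 with AAV9-Cardinal. Aplnr (1.0009), Angpt2 (-0.43) and Angpt1 (-1.66) with AAV9-GFP and Angpt1 (-1.11) with AAV9-Cardinal kept their direction and size to within 1.5 times.

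Among genes of the Tie pathway, Svep1, which encodes an extracellular matrix protein that binds TIE1, rose with AAV9-GFP (log2 fold change 1.16, SE 0.22, edgeR adjusted p = 0.0022). The log2 fold change was 0.20 for Tek, 0.18 for Tie1 and -0.02 for Ptprb, and none of these passed the threshold. With AAV9-Cardinal none of the 4 was called by edgeR or DESeq2 and 1 had an unadjusted p under 0.05. Angpt4 did not pass the filter on low counts. Of 12 tested genes of tip cells and sprouting, a list that also holds Angpt2 and Apln, 4 rose (8.49% of all genes tested) and 0 fell (8.92%) with AAV9-GFP (median 0.29): Esm1, a secreted proteoglycan of tip cells (1.57), the netrin receptor gene Unc5b (0.96), Nid2 (0.53) and Mcam (0.35). With AAV9-Cardinal, 0 were called by edgeR (6.48% of all genes) or DESeq2, and 2 had an unadjusted p under 0.05. Unc5b was lower with AAV9-Cardinal than with AAV9-GFP after TAC (log2 fold change -0.80, SE 0.14, edgeR adjusted p = 0.043), with means of 12.5 CPM (SD 2.03, n = 4) and 21.8 CPM (SD 2.83, n = 4). For the difference in TAC response between the viruses, edgeR and DESeq2 called 0 genes of the sprouting, reference endothelial, Tie pathway and Notch lists. Of 9 Notch pathway genes, only Heyl was called with AAV9-GFP, beside 17.4% of all genes, and it rose (0.56, edgeR adjusted p = 9.3e-04). With AAV9-Cardinal 0 were called by either tool and 2 had an unadjusted p under 0.05.

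Hypoxia response genes were mixed. Calls in this list and the next stand beside 17.4% of all genes called with AAV9-GFP and 6.48% with AAV9-Cardinal. Of 15 hypoxia genes tested, Hif1a (0.39) and Vhl (0.32) rose and Egln1 (-0.33), which encodes an oxygen sensor that marks HIF1A for destruction, fell with AAV9-GFP. With AAV9-Cardinal these had log2 fold changes of 0.16, 0.10 and -0.16 (adjusted p = 0.32, 0.65 and 0.079). Pfkfb3, a regulator of glycolysis, fell with AAV9-Cardinal (-0.60, adjusted p = 0.049), and its log2 fold change with AAV9-GFP was -0.49 (adjusted p = 0.056). The medians were -0.04 and 0.10. Of 9 genes of secreted inhibitors of angiogenesis, 4 rose and 2 fell with AAV9-GFP (median 0.42), and 2 rose and 1 fell with AAV9-Cardinal (median 0.22). Thbs1, the gene of thrombospondin-1, rose with both viruses (2.41 and 2.09, edgeR adjusted p = 0.011 and 0.049), whereas Thbs2 fell with both (-0.87 and -0.90, adjusted p = 0.0020 and 0.0062). Col4a3 (1.17) and Serpinf1 (1.01) rose with AAV9-GFP, and their log2 fold changes with AAV9-Cardinal were 0.46 (adjusted p = 0.060) and 0.29 (adjusted p = 0.35).

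**Figure D4:**
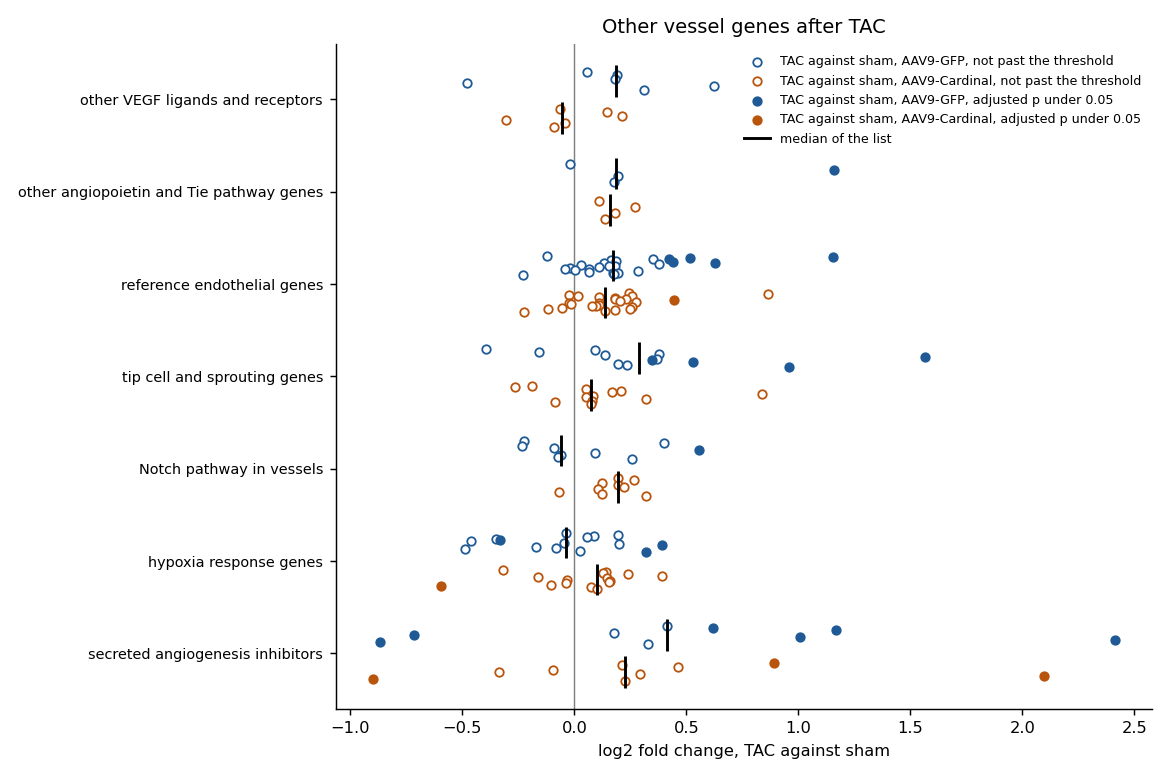
Log2 fold change of TAC against sham (x axis) for each tested gene (points) of 7 lists of vessel genes (y axis), with AAV9-GFP in blue and AAV9-Cardinal in orange; filled points have an adjusted p under 0.05 in edgeR and black bars are list medians. Of the reference endothelial genes 5 rose with AAV9-GFP and 1 with AAV9-Cardinal, where 17.4% and 6.48% of all genes were called in either direction. Thbs1 stands at the far right at 2.41 and 2.09.

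Markers of fibroblasts and of hypertrophy moved in the same comparisons. Of 8 fibroblast markers 3 rose with AAV9-GFP (8.49% of all genes tested): Postn (log2 fold change 2.86), Col1a1 (1.46) and Lum (0.74). With AAV9-Cardinal 1 rose (Postn, 1.37), beside 6.48% of all genes called in either direction. The rest of the list was called with neither virus. With AAV9-GFP the log2 fold change was -0.20 for Gsn, -0.17 for Dpt, 0.055 for Dcn, 0.18 for Pdgfra and 0.36 for Tcf21. The summed level of the 8 was 980 to 1145 CPM in AAV9-GFP sham mice and 1079 to 1414 CPM after TAC, and 995 to 1039 CPM and 918 to 1204 CPM with AAV9-Cardinal. Of 4 hypertrophy markers, Acta1, Nppa and Nppb rose with both viruses, Acta1 by 4.22 and 2.86 on the log2 scale. The other, Myh7, was called with neither (0.07 and 0.01, edgeR adjusted p = 0.46 and 0.93). The part of these in the changes of Aplnr and Angpt1 was not tested.

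Without AAV9-Cardinal TAC replicate 1, the calls with AAV9-Cardinal were Angpt1 and Pecam1. The log2 fold changes of the other members with AAV9-Cardinal were then 0.26 for Vegfa, -0.03 for Vegfb, 0.32 for Kdr, 0.30 for Flt1, 0.08 for Cdh5, 0.04 for Angpt2, 0.28 for Apln and 0.06 for Aplnr, with edgeR adjusted p of at least 0.088. The log2 ratio of Angpt2 over Angpt1 was then higher after TAC by 1.43, that of Apln over Aplnr by 0.21 and that of Vegfa over Vegfb by 0.30, and Flt1 over Kdr differed by -0.0039. The difference in TAC response between the viruses was -0.96 for Aplnr (adjusted p = 0.14) and 0.24 for Vegfb (adjusted p = 0.14). Relative to the mean of the reference genes, Angpt1 differed by -1.62 and Vegfb by -0.22 with AAV9-Cardinal, and Aplnr by -0.78 between the viruses after TAC.

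Between the viruses in sham hearts, 0 of the 10 members were called by edgeR or DESeq2 and 0 had an unadjusted p under 0.05, where 0.0119% of all genes were called. The log2 fold changes lay between -0.18 for Angpt2 and 0.19 for Aplnr. After TAC, edgeR called 0 of 10 (0.101% of all genes) and DESeq2 called 1, Aplnr, and 2 had an unadjusted p under 0.05 in edgeR, Aplnr and Flt1 (0.26, adjusted p = 0.29). For Angpt1 the log2 fold change was 0.54 (SE 0.29, adjusted p = 0.40), and it was 0.65 (adjusted p = 0.031) once both TAC mice numbered 1 were left out, a choice made after seeing that Angpt1 was highest in these mice. The difference in TAC response between the viruses was past the threshold for 0 of 10 members in edgeR and in DESeq2 (0.0119% of all genes in edgeR), and 2 had an unadjusted p under 0.05, Aplnr and Vegfb.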

How the data were processed

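Poly(A) RNA of 16 male mice was sequenced with single-end reads of 50 bases. The authors deposited raw read counts for 55573 Ensembl genes, with no normalization, and their processing notes name FastQC, HISAT2 2.1.0, edgeR 3.26.1 and the GRCm38 build, with the counting program and the use of strand not given in the sources used here. No column was left unused. Names and exon lengths were taken from GENCODE M21, where 93 genes had no name.

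All 16 mice entered a single quasi-likelihood fit in edgeR 4.0.16 (R 4.3.3) with TMM factors, filterByExpr on the 4 groups (leaving 16857 genes) and Benjamini-Hochberg adjustment over all of them, at a threshold of 0.05. Log2 CPM used a prior count of 2. Ratios within a mouse and levels relative to reference endothelial genes were compared by exact two-sided permutation (70 labelings) in Python 3.11.15. Any 2 mice of a group differed by more than sampling noise (chi-square per degree of freedom from 5.32 to 16.0). On simulated data, 75.0% of 200 genes changed between AAV9-GFP groups were called among 16666 (90.0% at 2-fold, 60.0% at 1.5-fold) with 6 false calls. The simulation gives no recovery for changes under 1.5-fold, such as those of Cdh5 and Vegfb. It held 0 changed genes between AAV9-Cardinal groups, so it gives no recovery there either. Alternatives were DESeq2 1.42.0, other filters and prior counts, fewer mice, a 2-fold minimum and the mouse number as a block. The members and lists were chosen with earlier results of these data known. All members are named, and from each list at most the 3 with the largest changes past the threshold, except in the short VEGF, Tie and apelin lists and for Mcam, Vhl, Thbs2 and the markers of other cell types and of hypertrophy, named after their values were seen.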

Additional observations from a re-analysis of the deposited data

Results flagged for a closer look

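Of 60 groups of 4 mice examined by Dixon's ratio, over the members' levels, the ratios and the total counts, 4 held a mouse far from the others, where chance gives about 3. AAV9-Cardinal sham replicate 3 had 34.3 CPM of Angpt1, and the other 3 mice lay between 38.2 and 38.9 CPM. AAV9-GFP TAC replicate 3 had 179.6 CPM of Cdh5, and the others lay between 152 and 155 CPM. The log2 ratio of Apln over Aplnr was -1.80 in AAV9-Cardinal TAC replicate 1 and between -0.65 and -0.46 in the rest of its group. The total count was 16441997 in AAV9-Cardinal sham replicate 4 and between 21603910 and 21786630 in the others of its group.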

How the results depend on the processing

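Of the 5 member changes past the threshold, none changed direction under any alternative run, and with AAV9-GFP the calls of Angpt1 and Aplnr were kept under all of them, that of Vegfb was lost only with a 2-fold minimum and that of Cdh5 with this minimum or the replicate block. A minimum 2-fold change left 2 members with AAV9-GFP (Angpt1 and Aplnr), with 385 genes called with AAV9-GFP, 137 with AAV9-Cardinal and 6 between the viruses after TAC. DESeq2 called 1 member between the viruses after TAC (Aplnr), with 428 genes there against 17 in edgeR, 4 against 2 in sham hearts and 137 against 2 for the difference in response. Without a filter on low counts, 615 genes were called with AAV9-Cardinal against 1092, and 3 between the viruses after TAC. A filter of 1 CPM in 4 mice gave 35 there, and a fit of only the 8 mice compared gave 3. That fit cannot give the difference in response, which needs all 16 mice.

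Mouse numbers recur across groups, and the correlation of the deviations of same-numbered mice was between -0.04 and 0.21. It was over 0.1 in 4 of 16 pairs, all 4 among the 6 pairs of mice numbered 1 (0.067 to 0.21), and at most 0.090 for the other numbers. As it was not over 0.1 in every pair, the numbers were not taken as pairs. With the mouse number as a replicate block, 3 members were called with AAV9-GFP and 0 with AAV9-Cardinal. Cdh5 had an adjusted p of 0.066, and Angpt1 with AAV9-Cardinal a log2 fold change of -0.91 (adjusted p = 0.19). The block left 31 genes with AAV9-Cardinal, 1 between the viruses in sham hearts, 0 after TAC and 1 for the difference in response. Mice numbered 5, 6 and 7 have no partner and add nothing to this fit. The block turned the direction of changes that were past no threshold: with AAV9-Cardinal, Vegfa to -0.013, Kdr to -0.15, Apln to -0.45 and Aplnr to -0.11; between the viruses after TAC, Vegfa to -0.079, Pecam1 to -0.094, Angpt2 to -0.43 and Apln to -0.20; and in the difference in response, Pecam1 to -0.040, Angpt2 to -0.24 and Apln to -0.31.

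Leaving out both TAC mice numbered 1, added after seeing the data, gave 2 members with AAV9-Cardinal (Angpt1 and Pecam1) and 1 between the viruses after TAC (Angpt1), with 1775, 392 and 42 genes called with AAV9-Cardinal, between the viruses after TAC and for the difference in response. Pecam1 also passed the threshold with AAV9-GFP in this fit (edgeR adjusted p = 0.036). Of changes past no threshold, Vegfa with AAV9-GFP then turned to 0.0011, Angpt2 with AAV9-Cardinal to 0.039 and Kdr between the viruses after TAC to 0.046. Against the median in place of the mean of the reference genes, with nothing past adjustment, Kdr (0.0067) and Angpt2 (0.0091) between the viruses after TAC, and Cdh5 (0.17), Apln (0.061) and Aplnr (0.17) with AAV9-Cardinal, changed sign. With AAV9-GFP, Cdh5 moved from 0.04 to 0.24, Pecam1 from 0.01 to 0.21, Flt1 from -0.30 to -0.11 and Vegfb from -0.48 to -0.28, and with AAV9-Cardinal Vegfb moved from -0.23 to -0.0022. The cause was not tested for any of these.

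With each mouse left out in turn, 0 to 2 members and 384 to 1436 genes were called with AAV9-Cardinal, 1 to 3 genes between the viruses in sham hearts, 0 to 535 after TAC (535 without AAV9-Cardinal TAC replicate 1) and 2 to 79 for the difference in response. The members with AAV9-GFP were 4 to 5 (5 without AAV9-GFP sham replicate 4). The log2 fold changes that took both signs were all past no threshold. With AAV9-GFP these were Vegfa (-0.11 to 0.12) and Apln (-0.27 to 0.0085). With AAV9-Cardinal they were Angpt2 (-0.52 to 0.040), Apln (-0.10 to 0.28) and Aplnr (-0.041 to 0.26). Between the viruses in sham hearts they were Vegfa (-0.20 to 0.019), Kdr (-0.012 to 0.13), Flt1 (-0.095 to 0.022), Pecam1 (-0.096 to 0.029), Cdh5 (-0.0002 to 0.074), Apln (-0.0073 to 0.25) and Aplnr (-0.015 to 0.29). After TAC they were Vegfa (-0.011 to 0.16), Kdr (-0.20 to 0.077), Pecam1 (-0.042 to 0.090) and Angpt2 (-0.30 to 0.25), and in the difference in response Kdr (-0.25 to 0.026), Pecam1 (-0.018 to 0.14) and Angpt2 (-0.13 to 0.43).

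Of the ratios, those that took both signs with a mouse left out were Vegfa over Vegfb (-0.11 to 0.091) and Apln over Aplnr (-0.15 to 0.049) between the viruses in sham hearts, and Flt1 over Kdr (-0.099 to 0.20) and Apln over Aplnr (-0.24 to 0.21) with AAV9-Cardinal. Relative to the reference genes, the same held for Pecam1 with AAV9-GFP (-0.022 to 0.070), for Vegfa (-0.031 to 0.12), Kdr (-0.091 to 0.12), Flt1 (-0.046 to 0.12), Apln (-0.31 to 0.098) and Aplnr (-0.16 to 0.089) with AAV9-Cardinal, for Kdr (-0.014 to 0.095), Cdh5 (-0.0063 to 0.051) and Aplnr (-0.012 to 0.24) between the viruses in sham hearts, and for Kdr (-0.13 to 0.082) and Angpt2 (-0.26 to 0.23) after TAC. Depth limits Angpt2 most, with 32 to 100 counts per mouse.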

Other observations

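For each member, the gene whose log2 CPM followed it most closely over the 16 mice, once the group means were removed, was Atp6v1b2 for Vegfa (Pearson's r = 0.97), Ndufb7 for Vegfb (0.94), Gm12447 for Kdr (0.91), Adgrf5 for Flt1 (0.93), Arhgef12 for Pecam1 (0.94), Sri for Cdh5 (0.88), Ppat for Angpt1 (0.92), Ppm1e for Angpt2 (0.93), Tjap1 for Apln (0.89) and Plekhg3 for Aplnr (0.88). Adgrf5 encodes an adhesion receptor of endothelial cells, and Atp6v1b2 a subunit of the vacuolar proton pump. Each was chosen as the closest of 16857 genes, so these values are high by choice and are a description only. Among the members themselves, Kdr and Angpt2 (r = 0.84), Vegfa and Pecam1 (0.81) and Pecam1 and Angpt2 (0.79) had the highest correlations, and Angpt1 with Angpt2 (-0.68) and with Pecam1 (-0.67) the lowest. The points of each correlation share libraries.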
